A study of Mus musculus with 6 samples.

Results

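The proteasome genes described here are the protein-coding genes of the deposited count table whose names start with Psma, Psmb, Psmc or Psmd followed by a digit, without the immunoproteasome genes Psmb8, Psmb9 and Psmb10. The rule, which used no measured value, gave 37 members among 54532 genes. By known role 16 belong to the core particle, 17 to the regulatory cap and 3 are assembly chaperones of the cap base, while Psmc3ip matches by its name alone and is not a proteasome subunit. After the filter on low counts 36 members were tested, and Psmb11, the thymus-specific catalytic subunit, was left out with 5, 3 and 0 counts in the vehicle libraries and 3, 2 and 2 in the uridine libraries.

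The libraries were made from the mRNA of cultured haematopoietic stem and progenitor cells (HSPCs), the bone marrow cells that renew the blood. All came from aged wild-type (WT) mice of the c57bl/6 strain, and no transgene is named. One group of 3 libraries was treated with vehicle and the other group of 3 with uridine, a nucleoside that feeds pyrimidine nucleotide synthesis. The labels give no age in numbers, dose, duration or sorting markers, and none says whether replicates were separate cultures or mice, so each p-value weighs a difference against the variation among these libraries alone, which may be technical.

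The proteasome degrades proteins tagged with ubiquitin. Its barrel-shaped core is built of rings of alpha subunits, which form the gate, and rings of beta subunits, of which Psmb5, Psmb6 and Psmb7 carry the proteolytic sites. The cap consists of a base, whose ATPases (Psmc) unfold substrates and open the gate, and a lid, which removes ubiquitin from them. The transcription factor Nfe2l1 is known to raise subunit genes together through antioxidant response elements, and stem cells of the blood depend on protein quality control.

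Most proteasome genes had a slightly higher estimate with uridine than with vehicle, in the core and in the cap. Psmb1, Psma5 and Psmb4 of the core and Psmc5 and Psmc3 of the cap rose, by 6.79% to 11.7%, and no member fell. Thus 5 of 36 tested members (13.9%) were called higher by edgeR's quasi-likelihood test at an adjusted p under 0.05, against 7.18% of all 14706 tested genes called higher, 10.1% called lower and 17.3% in either direction. Among the 4522 protein-coding genes with a mean of at least 1000 counts, which most members exceed, 12.1% were called higher and 16.9% lower, so the members' share of higher calls lay near that background. The median log2 change (uridine over vehicle) was 0.071 over the 15 tested core members and 0.047 over the 17 of the cap, beside 0.0053 over all tested genes. The estimate was above 0 in 13 of 15 core members and 15 of 17 cap members, beside 51.4% of all tested genes.

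Library totals ran from 16109265 to 18638627 counts, at which 3 counts equal 0.161 to 0.186 CPM (counts per library scaled to the same total, with TMM factors). HSPC markers were present, 13 of 13 tested, with 8 higher and 4 lower and a summed level of 3146 to 3150.3 CPM with vehicle and 3231 to 3269.8 CPM with uridine. Markers of other cells moved with treatment: 13 of 13 tested monocyte markers (of 15 in the list) fell, from 664 to 687 CPM summed to 289.6 to 292 CPM, and 12 of 14 tested neutrophil markers fell while 1 rose, from 3066 to 3138 CPM to 1654 to 1693 CPM. Of 5 tested erythroid markers 3 rose, with summed levels of 338 to 353 CPM against 429 to 435 CPM and 2 of the 12 listed genes at 0 in all libraries. Of 9 mast cell and basophil markers 3 rose and 2 fell, with a summed level of 182 to 187 CPM with vehicle and 176 to 196 CPM with uridine. Of the T, B and NK cell markers 3 of 9 were tested and 1 fell (38.5 to 46.5 CPM against 34.4 to 35.5 CPM). Most of that sum was Nkg7, which fell, with means of 37.6 CPM with vehicle and 30.3 CPM with uridine. Of the stromal and endothelial markers 3 of 8 were tested and 1 rose (143 to 146 CPM against 142 to 144 CPM). Most of this sum was Pecam1 (means of 130.5 and 126 CPM), while Col1a2, which rose, had means of 4.30 and 6.05 CPM. The mitochondrial share of counts was 1.80% to 1.81% with vehicle and 1.95% to 1.99% with uridine. In bulk RNA, fewer cells of a type and less RNA per cell cannot be told apart. The part of these shifts in the changes of proteasome genes was not tested.

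**Figure D1:**
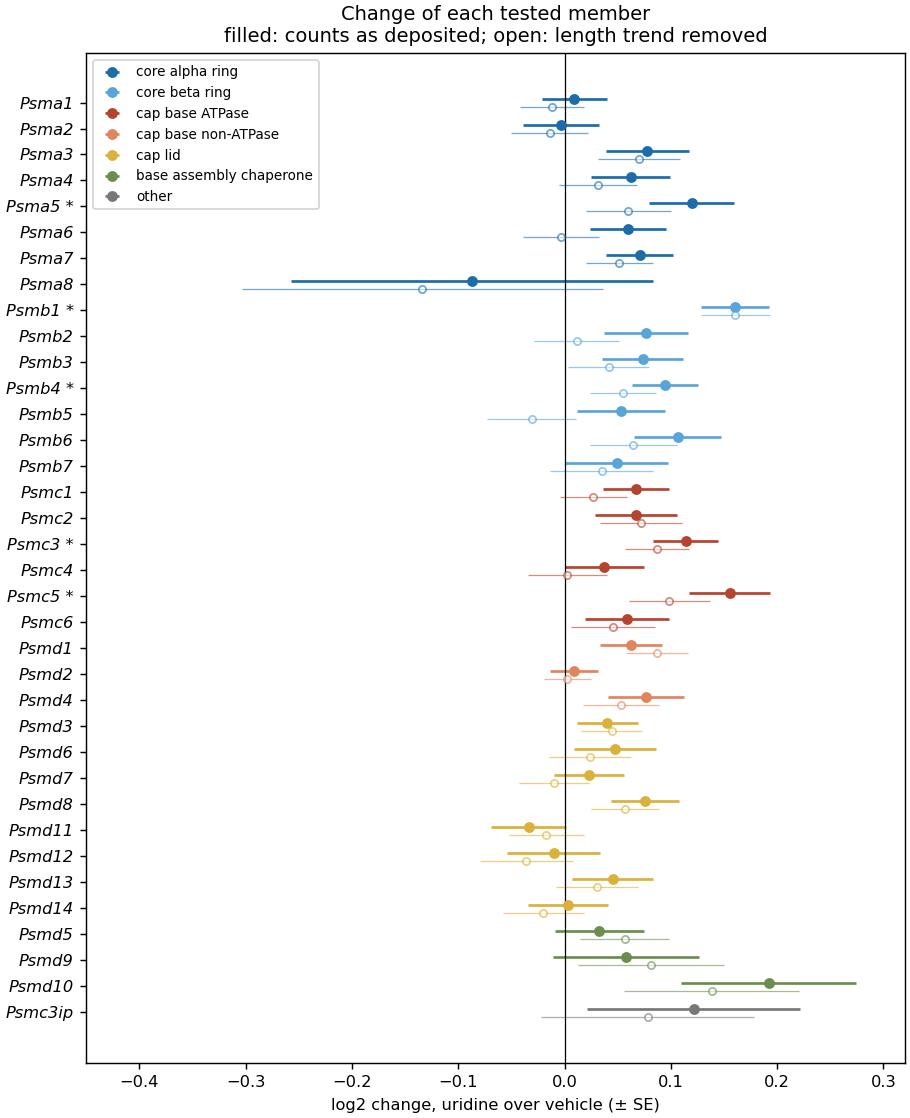
Change of each of the 36 tested members as the log2 ratio of uridine over vehicle with its standard error, from counts as deposited (filled) and with the gene length trend removed (open). Colours give the role and stars mark the 5 members with adjusted p under 0.05. Most filled points lie right of 0, and the 8 lid members lie between -0.034 and 0.076.

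Gene length moved with these changes. Over all tested genes the median log2 change ran from 0.11 in the group of shortest genes (48 to 1070 bases) to -0.059 in that of the longest (9299 to 123179 bases), each group holding 10% of the genes. Core members had a median gene length of 2300 bases and cap members of 2820, against 3875 for all tested genes. In all, 28 of 36 members lay above the median of their own length group, 11 of the 15 in the core and 13 of the 17 in the cap. With the length trend removed from every library, the median was 0.035 in the core and 0.031 in the cap, and 3 members were called higher (Psmb1, Psmc3 and Psmd1), against 6.15% of all tested genes, and none lower, against 8.85%. The estimate was then above 0 in 10 of 15 core members and 13 of 17 cap members. It was above 0 in 4 of 8 members in the alpha ring and in 4 of 8 in the lid. The offset used the deposited length, which exceeds the principal transcript in GENCODE vM21 by a factor of 2.61 in Psmb1, 1.59 in Psmc3 and 2.33 in Psmd1. No offset by the length of the principal transcript was fitted. The part of length in the changes of single genes was not tested further.

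**Figure D2:**
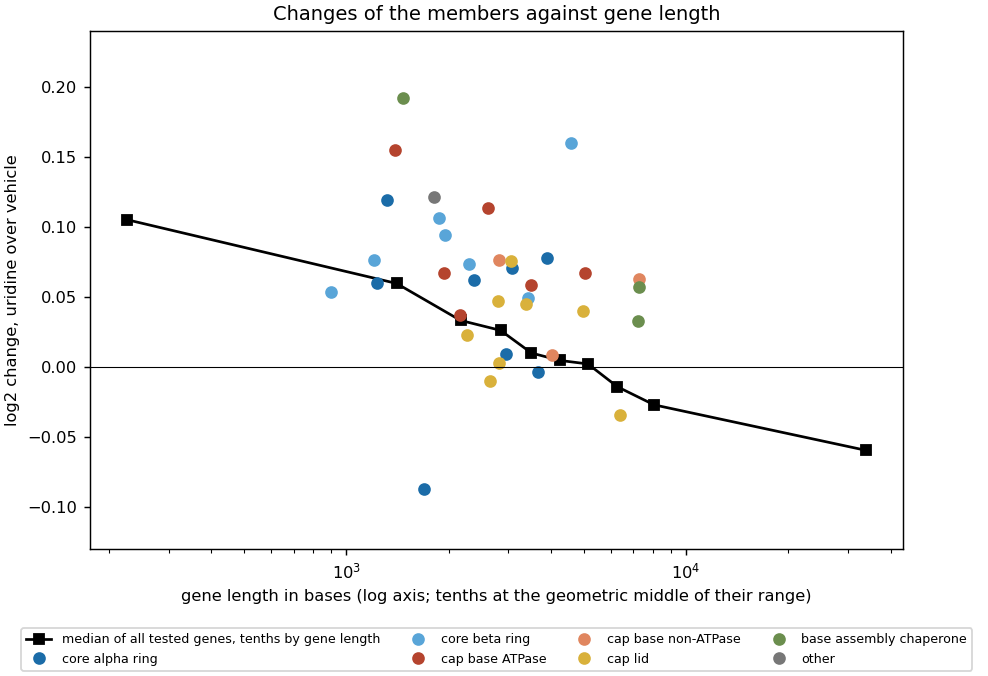
Log2 change of each tested member against its gene length in bases (log axis), with the median of all tested genes in groups of 10% by length (black squares). The black line falls from 0.11 to -0.059, and 28 of 36 members lie above the median of their group.

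The bases just upstream of 7 members are printed to show the sequence next to some of the genes described here. They are Psma5, Psmb4 and Psmc5, which rose, the catalytic Psmb5 and Psmb6 with a match to the antioxidant response element, and Psmd2 and Psmd11 of the cap with an ETS-type motif, Psmd11 being the lid member with the largest fall in estimate. RefSeq promoter windows of GRCm38.p6, matched by symbol, were given for 30 of 37 members, and the 250 bases before each start were searched on both strands for TGACNNNGC (antioxidant response element), CCGGAAG (ETS type) and CCAAT (NF-Y type), and no matches of different motifs overlapped within a window of a member. Psma6 and Psmc2 have more than 1 window, and a gene was counted when any of its windows held the motif. Each stretch is 100 bases, 5′ to 3′ on the gene's strand and upstream of the deposited gene span. The letters of a match are in capitals, and the reverse complement CTTCCGG marks a match on the other strand.
Psma5: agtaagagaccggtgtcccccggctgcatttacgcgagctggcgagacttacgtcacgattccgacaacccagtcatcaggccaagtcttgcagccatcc
Psmb4: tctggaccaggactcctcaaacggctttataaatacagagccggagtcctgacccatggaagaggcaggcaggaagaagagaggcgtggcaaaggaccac
Psmc5: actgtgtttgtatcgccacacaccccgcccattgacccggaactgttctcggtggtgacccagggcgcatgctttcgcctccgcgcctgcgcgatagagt
Psmb5: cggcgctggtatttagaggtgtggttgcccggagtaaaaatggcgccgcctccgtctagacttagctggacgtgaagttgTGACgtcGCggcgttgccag
Psmb6: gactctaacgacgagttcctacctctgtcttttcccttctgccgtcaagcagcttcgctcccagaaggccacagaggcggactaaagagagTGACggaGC
Psmd2: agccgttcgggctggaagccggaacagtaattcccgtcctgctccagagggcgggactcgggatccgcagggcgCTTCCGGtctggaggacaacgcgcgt
Psmd11: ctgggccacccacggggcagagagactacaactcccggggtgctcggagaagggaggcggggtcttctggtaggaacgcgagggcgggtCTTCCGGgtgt
These lie at chr3:108256826-108256925, plus strand (Psma5), chr3:94886962-94887061, minus strand (Psmb4), chr11:106256054-106256153, plus strand (Psmc5), chr14:54618023-54618122, minus strand (Psmb5), chr11:70525257-70525356, plus strand (Psmb6), chr16:20651552-20651651, plus strand (Psmd2) and chr11:80428515-80428614, plus strand (Psmd11). None of the 3 motifs was found within the searched bases of Psma5, Psmb4 and Psmc5, whose calls did not hold with the length trend removed. No stretch is printed for Psmb1 and Psmc3, whose calls held with that trend removed. Psmb1 had no window and was not searched. A link between motifs and calls was not tested. TGACNNNGC was found in 5 of 30 members (16.7%; Psmb5, Psmb6, Psmc6, Psmd12 and Psmd9), against 11.5% of 27025 genes with a window. CCGGAAG was found in 10 of 30 (33.3%) against 7.83% of all genes, in 8 of the 14 cap members with a window but in 1 of the 12 core members. The core match was in window 2 of Psma6, and the remaining gene was Psmc3ip, which is not a subunit. CCAAT was found in 13 of 30 (43.3%) against 37.5%, in 7 of 12 core members and 4 of 14 cap members. The shares over all genes with a window take in genes not tested here, and no share over the tested genes alone was taken. These matches describe letters only.

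In the beta ring, Psmb1, a structural subunit without a proteolytic site, changed with the smallest adjusted p of all members. It is ENSMUSG00000014769 on chromosome 17, 15475021 to 15499751, minus strand, 4595 bases in the deposited table (mm10). Its level was 148, 146 and 147 CPM in the vehicle libraries and 165, 165 and 163 CPM in the uridine libraries. All 3 uridine libraries were above all 3 vehicle libraries, and each group lay within a narrow range. The means were 147 ± 1.11 CPM with vehicle and 164 ± 1.55 CPM with uridine (SD, n = 3), and Psmb1 rose 1.12-fold (log2 0.16 ± 0.032 (SE), adjusted p = 9.7e-05, edgeR). It was called under each of 16 alternative settings, and removing the length trend left it at 0.16. That removal used the deposited 4595 bases, while its principal transcript in GENCODE vM21 has 1758, a length not tried in the offset.

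Psmb4, which helps to close the ring and also bears no active site, is ENSMUSG00000005779 on chromosome 3, 94884093 to 94886961, minus strand, 1951 bases. It had 189, 176 and 189 CPM with vehicle and 199, 199.9 and 192 CPM with uridine. Here 2 vehicle libraries sat close below the lowest uridine library and the other lay apart below them. Psmb4 rose by 0.09 ± 0.031 (SE) (log2; adjusted p = 0.022, edgeR). Its adjusted p was 0.26 with the length trend removed, 0.075 with DESeq2's Wald test, 0.24 without vehicle replicate 2, and 0.078 and 0.096 without uridine replicates 1 and 2.

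None of the 3 catalytic subunits passed the test. Psmb6, which holds the caspase-like site (ENSMUSG00000018286 on chromosome 11, 70525367 to 70527858, plus strand, 1872 bases), had 95.6, 102 and 95.6 CPM with vehicle and 104, 109.9 and 101 CPM with uridine. The highest vehicle value exceeded the lowest uridine value, so the groups overlapped, with a log2 difference of 0.11 ± 0.041 (SE) and an adjusted p of 0.061 (edgeR). Psmb6 passed the threshold without vehicle replicate 2 (0.030) or uridine replicate 3 (0.035), with library size as the sole scaling (0.038) and among protein-coding genes only (0.045).

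Psmb5, the chymotrypsin-like subunit (ENSMUSG00000022193 on chromosome 14, 54614119 to 54618022, minus strand, 899 bases), had 97.3, 108 and 105 CPM with vehicle and 105, 104 and 114 CPM with uridine. Psmb7, the trypsin-like subunit (ENSMUSG00000026750 on chromosome 2, 38588036 to 38644087, minus strand, 3421 bases), had 66.3, 71.4 and 72.0 CPM with vehicle and 72.2, 74.8 and 69.9 CPM with uridine. Both sets of values overlapped between the groups, at log2 0.05 ± 0.041 (SE) for Psmb5 (adjusted p = 0.43) and 0.05 ± 0.048 (SE) for Psmb7 (adjusted p = 0.56, edgeR). Removing the length trend turned the estimate of Psmb5 to -0.03. On the annotation of GENCODE vM21, 11.8% of the exon bases of Psmb7 overlap Nek6 on the other strand, and without a stated strand setting those reads cannot be told apart. The remaining ring members Psmb2 (0.08) and Psmb3 (0.07) were above the vehicle libraries in all uridine libraries but did not pass the test (adjusted p = 0.19 and 0.19, edgeR).

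**Figure D3:**
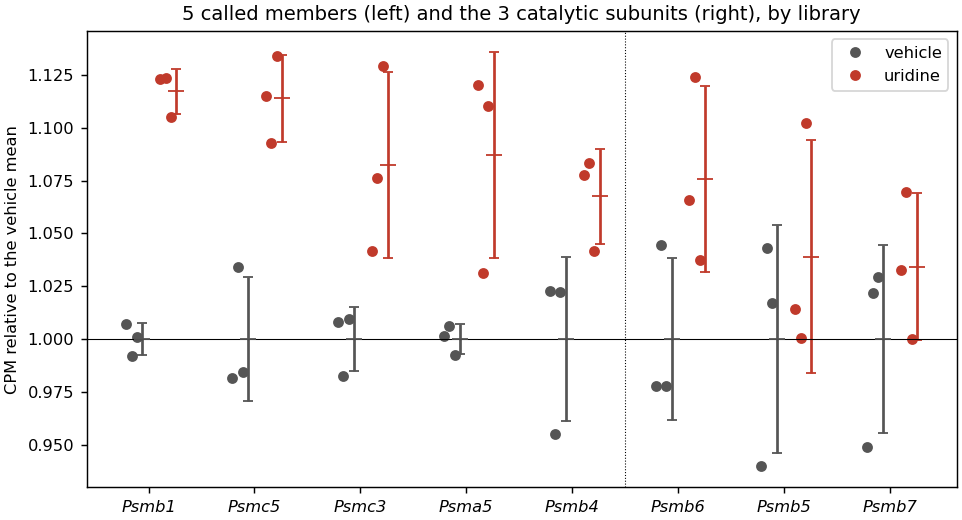
Level of the 5 called members (left of the dotted line) and of the 3 catalytic subunits (right) in each library, as CPM relative to the vehicle mean of the gene. Points are libraries and bars the mean ± SD of 3. For the 5 called members no uridine point lies below a vehicle point, while for Psmb5, Psmb6 and Psmb7 the groups overlap.

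In the alpha ring, whose N-terminal tails gate the barrel, Psma5 rose and no other member did. Psma5 is ENSMUSG00000068749 on chromosome 3, 108256926 to 108279974, plus strand, 1321 bases, and had 99.0, 99.5 and 98.1 CPM with vehicle against 111, 102 and 109.7 CPM with uridine. The vehicle values were nearly equal, and uridine replicate 2 was the lowest of its group, still above them. Its change was 0.12 ± 0.040 (SE) (log2; adjusted p = 0.027, edgeR). The call was lost on leaving out any library but uridine replicate 2: the adjusted p was 0.053, 0.057 and 0.082 without vehicle replicates 1, 2 and 3, and 0.15 and 0.12 without uridine replicates 1 and 3. It was also 0.081 with DESeq2's Wald test and 0.36 with the length trend removed.

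The other alpha subunits with usable counts were Psma3 (0.08), Psma7 (0.07), Psma4 (0.06) and Psma6 (0.06), none past the test in the fit to all libraries. Psma7 was called without uridine replicate 3 (adjusted p = 0.018, edgeR), and Psma6 turned to -0.0035 with the length trend removed. Psma1 (0.0092, adjusted p = 0.89) and Psma2 (-0.0034, adjusted p = 0.97) had the estimates nearest to 0 in the ring, and both changed sign under some settings. Psma8, a testis-enriched relative of Psma7, was counted at 107, 95 and 98 with vehicle and 86, 100 and 90 with uridine, -0.09 ± 0.17 (SE) on the log2 scale. Its reads may be shared with Psma7 and its level is uncertain, since the authors' treatment of reads with several positions is not given in the sources used here.

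In the base ATPase ring, Psmc5 and Psmc3 rose. Psmc5 (ENSMUSG00000020708 on chromosome 11, 106256154 to 106263120, plus strand, 1394 bases) had 103, 108 and 103 CPM with vehicle and 117, 114 and 119 CPM with uridine. The lowest uridine value lay above the highest vehicle value, and vehicle replicate 2 was the highest of its group. The means were 105 ± 3.08 CPM with vehicle and 117 ± 2.16 CPM with uridine (SD, n = 3), a log2 change of 0.16 ± 0.038 (SE) (adjusted p = 0.0016, edgeR). With the length trend removed the estimate was 0.10 and the adjusted p 0.070.

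Psmc3 (ENSMUSG00000002102 on chromosome 2, 91054009 to 91066369, plus strand, 2607 bases) had 194, 189 and 194 CPM with vehicle and 200.1, 207 and 217 CPM with uridine, so that uridine replicate 3 was the highest of all. It rose by 0.11 ± 0.030 (SE) (adjusted p = 0.0038, edgeR), and by 0.09 with the length trend removed (adjusted p = 0.038). Without uridine replicate 3 its adjusted p was 0.086. On GENCODE vM21, 8.25% of its exon bases lie opposite Slc39a13, whose reads cannot be told apart without a stated strand setting. The other 4 ATPases, Psmc1 (0.07), Psmc2 (0.07), Psmc6 (0.06) and Psmc4 (0.04), were above 0 in estimate and did not pass the test (adjusted p = 0.14, 0.26, 0.35 and 0.57, edgeR). In 5 of the 6 ATPases, all but Psmc6, all uridine libraries were above all vehicle libraries, beside 14.7% of all tested genes; with the length trend removed this held in 3 of 6, beside 13.9%.

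Among the other base subunits, Psmd4, a ubiquitin receptor, had 123, 121 and 125 CPM with vehicle and 129, 132 and 129 CPM with uridine. The groups did not overlap, with a log2 difference of 0.08 ± 0.036 (SE) and an adjusted p of 0.14 (edgeR). Psmd1, a large scaffold of the base, had 207, 219 and 222 CPM with vehicle and 229.9, 223 and 224 CPM with uridine, and the vehicle values stayed below those with uridine. Its estimate was 0.06 ± 0.029 (SE) (adjusted p = 0.14), and 0.09 with the length trend removed, where it passed the test (adjusted p = 0.029, edgeR). That removal used the deposited length of 7265 bases, while the principal transcript of Psmd1 in GENCODE vM21 has 3112. Psmd2, the partner scaffold and the cap gene with the most counts, had 397, 394 and 392 CPM with vehicle and 402, 398 and 389 CPM with uridine, with a log2 estimate of 0.0087 (adjusted p = 0.86).

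In the lid, none of the 8 members was called, in none did the groups lie apart, and the median log2 change was 0.032, or 0.0071 with the length trend removed. These 8 leave out Sem1, a lid component whose name falls outside the rule. Sem1 rose (adjusted p = 0.018, edgeR) and is described with the factors bound to the cap. Psmd8 had 174, 167 and 164 CPM with vehicle and 185, 175 and 172 CPM with uridine, with overlapping groups (0.08 ± 0.032 (SE) on the log2 scale, adjusted p = 0.096, edgeR; 0.044 without vehicle replicate 1). Psmd11 had 135, 133 and 135 CPM with vehicle and 135, 132 and 127 CPM with uridine and the largest estimated fall of the lid, -0.03 ± 0.035 (SE) (adjusted p = 0.59). Psmd14, the deubiquitinase that strips ubiquitin chains at the cap, had 114, 108 and 113 CPM with vehicle and 113, 111 and 111 CPM with uridine, an estimate of 0.0033 (adjusted p = 0.97).

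The remaining lid scaffold members were Psmd6 (0.05), Psmd13 (0.05), Psmd3 (0.04), Psmd7 (0.02) and Psmd12 (-0.01), with adjusted p between 0.38 and 0.92 (edgeR). Psmd13 shares 10.1% of its exon bases with Sirt3 on the other strand. The difference between the lid and the base was not tested.

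The base chaperones, which help the ATPase ring to assemble, were Psmd10, Psmd5 and Psmd9. Psmd10 had 21.3, 23.3 and 23.5 CPM with vehicle and 25.2, 24.7 and 28.0 CPM with uridine, the largest estimate of all members at 0.19 ± 0.082 (SE), without overlap but at low level (adjusted p = 0.10, edgeR). Psmd5 (0.03) and Psmd9 (0.06) had adjusted p of 0.68 and 0.65. Psmc3ip, a factor of meiotic recombination, had 14.2, 15.2 and 14.8 CPM with vehicle and 16.3, 15.6 and 16.3 CPM with uridine (adjusted p = 0.47); 21.2% of its exon bases lie opposite Mlx.

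Counting only the separation of the groups, all 3 uridine libraries were above all 3 vehicle libraries in 15 of 36 members (41.7%), against 14.7% of all tested genes and 18.3% of the protein-coding genes with at least 1000 counts. No member had all uridine libraries below the vehicle libraries, against 16.1% of all tested genes and 23.7% of the abundant set. By role these were 6 of 15 tested core members, 7 of 9 base members and 0 of 8 lid members, which makes 13 of 32 in core and cap. The rest were 1 of 3 assembly chaperones and Psmc3ip, which is not a subunit. With the length trend removed the count was 10 of 36, beside 13.9% of all genes, and 0 lay below, beside 15.4%. By role it was then 2 of 15 in the core, a share near that background, 5 of 9 in the base and 0 of 8 in the lid. Core and cap together held 7 of 32, and the rest were 2 of 3 assembly chaperones and Psmc3ip. The lid counts leave out Sem1, outside the name rule, whose uridine libraries were all above the vehicle libraries in CPM.

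Core and cap were compared through summed levels per kilobase of the deposited gene length. The core sum was 849, 860.4 and 857 CPM per kilobase with vehicle and 903, 895 and 901 with uridine. The cap sum was 857, 851 and 854 CPM per kilobase with vehicle and 891, 885 and 888 with uridine. All uridine libraries were above all vehicle libraries in each. The core mean went from 855 ± 5.95 to 899 ± 4.06 CPM per kilobase (SD, n = 3), a difference of 5.14%, and the cap mean from 854 ± 2.74 to 888 ± 2.97, a difference of 3.97%. With the length trend removed these were 1.92% for the core and 2.37% for the cap, so the order of the pair turned. No test was made on sums over members.

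The core to cap ratio of the sums was 0.991, 1.011 and 1.004 with vehicle and 1.014, 1.011 and 1.014 with uridine, all close to 1. The means were 1.002 ± 0.0101 and 1.013 ± 0.00134 (SD, n = 3). With the length trend removed the means were 1.010 and 1.005, the opposite order.

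**Figure D4:**
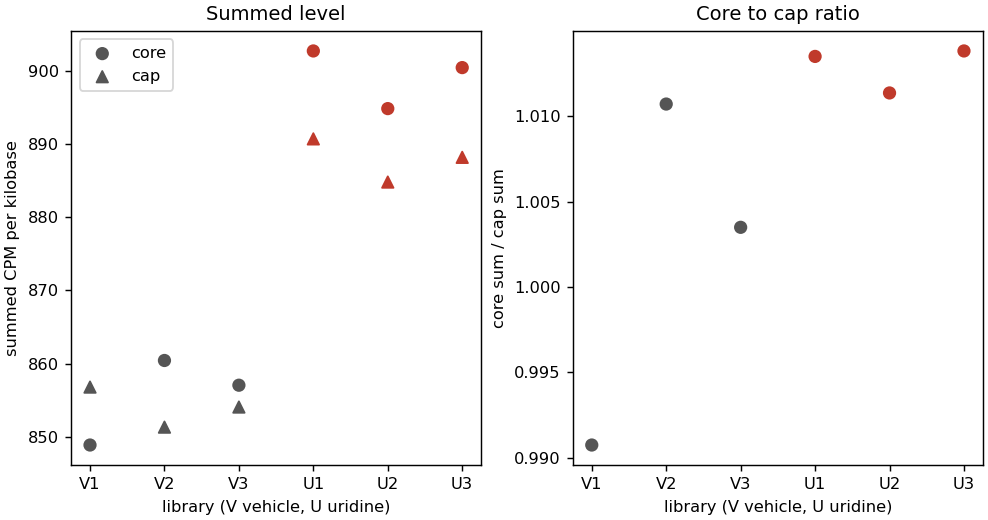
Summed level of 15 core and 17 cap members in CPM per kilobase (left) and the core to cap ratio (right) in each library; neither axis starts at 0. Vehicle sums lie between 849 and 860.4, uridine sums between 885 and 903, and the ratio lies between 0.991 and 1.014.

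Members of a particle that holds its subunits in fixed numbers differed in level several-fold. Without Psma8, levels per kilobase of gene length ran from 20.8 CPM (Psmb7) to 117 CPM (Psmb5) in the core, and from 20.8 (Psmd11) to 97.9 (Psmd2) in the cap. With the length of the principal transcript in GENCODE vM21, a scale added after these values were seen, the range was 38.9 (Psma3) to 207 (Psma7) in the core and 46.6 (Psmd11) to 134 (Psmd2) in the cap. The cap narrowed from a 4.70-fold to a 2.86-fold range, and Psma7 was the gene whose deposited length exceeded its principal transcript most, by a factor of 3.36.

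**Figure D5:**
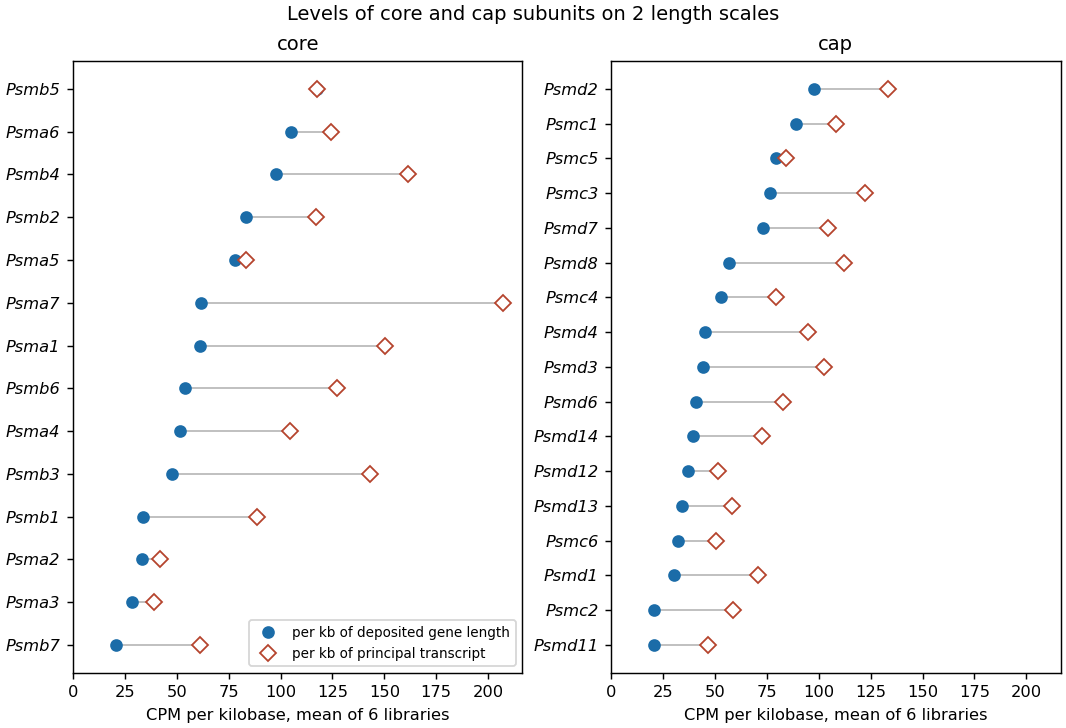
Level of each core (left) and cap (right) subunit without Psma8, as mean CPM per kilobase over 6 libraries, by the deposited gene length (filled) and by the principal transcript (open). Every level per principal transcript is at least as high, and the order of genes differs between the scales.

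The immunoproteasome genes replace the catalytic core subunits in immune cells and under interferon. Per kilobase, the level ratio of Psmb9 to Psmb6 was 0.424 ± 0.0219 with vehicle and 0.408 ± 0.0235 with uridine, and that of Psmb8 to Psmb5 was 0.422 ± 0.0212 and 0.413 ± 0.0404 (SD, n = 3). The ratio of Psmb10 to Psmb7 was 2.28 ± 0.0747 and 2.23 ± 0.0577. The size of these ratios depends on the length used. The deposited length exceeds the principal transcript by a factor of 2.95 in Psmb7 and 2.35 in Psmb6, and equals it in Psmb5. Without division by length, the vehicle means were 79.4 CPM for Psmb10 and 69.9 CPM for Psmb7. The ranges of the groups overlapped for each pair, and none of the 3 genes passed the test: Psmb8 had a log2 change of 0.024 (adjusted p = 0.73), Psmb9 of 0.052 (0.49) and Psmb10 of 0.018 (0.86, edgeR).

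Other genes of the pathway were counted in lists, to be read against the same 7.18% called higher and 10.1% lower. Of 5 activators and inhibitors none passed the test; Psme1 (0.045, adjusted p = 0.43) and Psme2 (0.17, 0.13), which form the activator cap of the immunoproteasome, were among them, and Psme2 was called without vehicle replicate 3 (0.0096). None of 6 assembly factors outside the rule was called with all libraries, Pomp, the core maturation chaperone, having 0.071 (adjusted p = 0.26, edgeR), and 1 was called higher without vehicle replicate 1. Psmf1, a proteasome inhibitor, and Akirin2, which brings proteasomes into the nucleus, are named after their values were seen. Psmf1 had a log2 estimate of 0.17 ± 0.064 (SE) (adjusted p = 0.060, edgeR), and passed the test with the length trend removed (0.18, adjusted p = 0.039) and without uridine replicate 1 (adjusted p = 0.021). Akirin2 had -0.14 ± 0.064 (SE) (adjusted p = 0.13), and was called lower with the length trend removed (-0.18, adjusted p = 0.037, edgeR).

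Of 8 factors bound to the cap, 2 rose and 1 fell. Sem1, a small lid component, had 77.3, 70.5 and 76.9 CPM with vehicle and 83.2, 80.8 and 84.6 CPM with uridine (0.15 ± 0.046 (SE), adjusted p = 0.018, edgeR; 0.18 without vehicle replicate 2, 0.055 and 0.077 without uridine replicates 1 and 3). Zfand5, a zinc finger protein that stimulates the proteasome, rose by 0.11 ± 0.030 (SE) (adjusted p = 0.0038; 0.097 without uridine replicate 3). Ecpas, a large scaffold that holds cap and core together, fell from 269, 269 and 268 to 244, 249.5 and 247 CPM (-0.12 ± 0.026 (SE), adjusted p = 2.8e-04); with the length trend removed its adjusted p was 0.073.

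Of 7 tested ubiquitin receptors and shuttles 2 fell, Ubqln2 (-0.12 ± 0.041 (SE), adjusted p = 0.029, edgeR) and Ddi2, the protease that activates Nfe2l1 (-0.13 ± 0.039 (SE), adjusted p = 0.015). Neither call held in every setting: Ubqln2 had adjusted p of 0.061 and 0.25 without vehicle replicates 1 and 3 and 0.081 and 0.093 without uridine replicates 1 and 2, and Ddi2 0.089 without vehicle replicate 3, 0.11 without uridine replicate 2 and 0.15 with the length trend removed. Among ubiquitin genes and activating enzymes, Ubb, a polyubiquitin gene, rose by 0.13 ± 0.025 (SE) (adjusted p = 2.5e-04).

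Of 6 genes of the segregase that pulls substrates out of complexes, Nploc4, a cofactor, fell by 0.10 ± 0.031 (SE, log2; adjusted p = 0.014, edgeR; 0.072 and 0.072 without vehicle replicates 1 and 3, and 0.084 without uridine replicate 2). Of 11 regulators of proteasome genes Nfe2l1 fell, from 134, 141 and 137 to 132, 126 and 124 CPM. The uridine values lay below the vehicle values, with a change of -0.11 ± 0.036 (SE) (adjusted p = 0.021, edgeR; 0.13 without vehicle replicate 2, 0.076 and 0.11 without uridine replicates 2 and 3, and 0.062 with DESeq2's Wald test). Nfe2l2, a related factor, had 0.027 (adjusted p = 0.61). Nfya, an NF-Y subunit named after its values were seen, had 0.07 ± 0.031 (SE) (adjusted p = 0.12) and passed the test with the length trend removed (0.093, adjusted p = 0.027, edgeR). With DESeq2's Wald test the adjusted p was 0.059 for Sem1 and 0.084 for Ubqln2.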

How the data were processed

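Messenger RNA of 6 samples of aged HSPCs, 3 given vehicle and 3 given uridine, was sequenced as paired reads of 150 bases, per the labels' protocols. The authors deposited raw whole-number read counts per gene with gene length and position; per the submitters' processing notes, the tools include HISAT2 2.0.5, and the build is mm10. How reads were counted over genes (program, annotation, strand, reads with several positions) is not given in the sources used here.

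Counts were filtered with filterByExpr (14706 genes left) and normalized with TMM factors. Uridine was compared with vehicle by the quasi-likelihood test of edgeR 4.0.16 in R 4.3.3, with Benjamini-Hochberg adjustment over all tested genes, and a gene was called at adjusted p under 0.05. Standard errors were derived from the log2 change and its F statistic. Replicate libraries differed by more than sampling noise. The CPM value of 3 counts covers counting error only.

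Members followed the name rule and were given roles by hand; members, roles and gene lists were chosen with earlier results of these data known. Named genes are the called members, the catalytic subunits, the largest rise and fall of each role, the highest and lowest levels, and in each pathway list up to 4 called genes plus Nfe2l1, Nfe2l2, Pomp, Psme1, Psme2, Psmb8, Psmb9 and Psmb10; Psmd1, Psmd14 and the other members were named to account for all 37. One pathway gene is not reported here. Levels per kilobase use the deposited length. The length trend was removed by an offset, a lowess of each library's log2 deviation on log2 length. Promoter windows came from RefSeq (GRCm38.p6) and exon overlaps from GENCODE vM21. Alternatives were DESeq2 (1.42.0) size factors and Wald test, limma-voom (limma 3.58.1), no normalization factors, other filters, protein-coding genes alone, a replicate block, the length offset, both together, and each library left out.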

Additional observations from a re-analysis of the deposited data

How the results depend on the processing

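No call turned into the opposite direction. Core members called higher were 3, and 1 with DESeq2's Wald test, after removal of the length trend, and with the replicate block plus length removal. They were 4 with library size alone and with protein-coding genes alone, and 1 to 4 with a library left out. Cap members called higher were 2, and 1 to 3 with a library left out. With the length trend removed the cap calls were Psmc3 and Psmd1, and Psmc5 was not called. Over both the count was 5, and 3 with DESeq2's Wald test, length removal, and the block plus length removal. It was 6 with library size alone and with protein-coding genes alone, and 3 to 5 with a library left out. Without uridine replicate 1 the core count was 1, and without uridine replicate 3 the cap count was 1. The median log2 change of the core (0.071) was 0.080 with library size alone, 0.035 with length removed and 0.035 with the block plus length, and 0.065 to 0.074 with a library left out. That of the cap (0.047) was 0.057, 0.031, 0.030 and 0.042 to 0.057, and that of both (0.061) was 0.070, 0.033, 0.033 and 0.054 to 0.068. The summed core difference (5.14%) was 5.81% without TMM factors, 7.30% from medians, 1.92% with length removed and 4.74% to 5.45% with a library left out; the cap (3.97%) gave 4.63%, 2.37% with length removed and 3.80% to 4.15%. The core to cap ratio (1.002 and 1.013) was 1.213 and 1.252 from medians, 1.088 and 1.102 per principal transcript, and 1.005 with uridine after length removal. The summed-level settings, principal transcript and ratio with length removed were chosen after seeing the data. DESeq2's Wald test called 696 genes higher, against 1056.

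With the replicate number as a block, 5 members were called higher, 3 core and 2 cap, and Psme2 passed the test (adjusted p = 0.048, edgeR). Samples with the same number did not deviate together (correlations -0.015, 0.027 and -0.014). Such correlations can miss a weak link, and the labels do not say what the number stands for. Estimates that changed sign, none of them called, were Psma1 (-0.012 with length removed and -0.012 with the block too, -0.0033 to 0.021 with a library left out), Psma2 (0.0058 with library size alone, 0.00020 with protein-coding genes alone, -0.011 to 0.0071 with a library left out), Psma6 (-0.0035 with length removed and -0.0034 with the block too), Psmb5 (-0.031 with length removed and -0.030 with the block too) and Psmd2 (-0.0015 to 0.021 with a library left out). The same held for Psmd7 (-0.0096 with length removed and -0.010 with the block too, -0.0083 to 0.046 with a library left out), Psmd12 (-0.054 to 0.043 with a library left out), Psmd14 (-0.020 with length removed and -0.019 with the block too, -0.019 to 0.021 with a library left out), Psmb8 (-0.00030 with length removed and -0.0012 with the block too, -0.0060 to 0.059 with a library left out) and Psmb10 (-0.029 with length removed and -0.029 with the block too, -0.030 to 0.061 with a library left out). The causes were not tested. Of 576 pairs of a member and an alternative, 530 kept direction and call, and depth limits Psmb11, Psma8 and Psmc3ip most.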
